A study of Homo sapiens with 4 samples.

Results

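Matrix metalloproteinases (MMPs) are zinc-dependent enzymes that cut collagens and other proteins of the extracellular matrix, and the tissue inhibitors of metalloproteinases (TIMPs) bind and block them. Most MMPs are secreted as inactive proenzymes that become active when their propeptide is removed, and the transcription of several of them is known to rise with growth factors, cytokines and stress through AP-1 factors such as FOS and JUN. In lung carcinoma cells this system is known for its part in invasion. The data described here are the signals of 10 of these genes, MMP1, MMP2, MMP3, MMP9, MMP10, MMP13, MMP14, TIMP1, TIMP2 and TIMP3, in A549 cells with and without embelin. Their probes were found by the gene name or the transcript that the array design gives for each probe, which found all 10 genes with 11 probes (7 for MMPs and 4 for TIMPs, 2 of these for TIMP2) among 50238 probes on the array, whose transcripts name 18357 genes.

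A549 cells are an established line from a human lung adenocarcinoma. Embelin is a benzoquinone found in plants. The study looked for genes and pathways that change early in embelin-treated cells, at 4 h. RNA came from 2 untreated control samples and 2 samples given embelin (15 µM for 4 h), and in both groups the medium was changed to one with less serum before the treatment. The labels call the controls untreated and name no solvent given to them. Each sample was labelled with Cy3 and hybridized to 1 array, and the 4 arrays lay on 1 slide. The labels do not say whether replicates were separate cultures, so that p-values measure only the spread between these samples. Since RNA was taken from whole cultures, fewer cells of a kind and less RNA per cell cannot be told apart.

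Values are log2 intensities scaled so that the 75th percentile was the same on every array. A probe was called detected on an array where the scanner software marked its spot as well above background. This held for 66.7% of all probes on the array of control 1 and 66.4% on that of embelin 2, but for 50.3% on control 2 and 51.2% on embelin 1, so that 1 array of each group had the noisier background. A probe entered the limma test if both arrays of either group detected it, which gave 26145 probes, and the Benjamini-Hochberg adjustment of p ran over all of these. No spot was saturated. All 9 epithelial carcinoma markers examined, among them EPCAM, KRT8, KRT18 and AKR1B10, were detected on all 4 arrays by at least 1 probe each. The summed normalized intensity of their probes was 1314000 and 1393000 in the controls and 1171000 and 1164000 with embelin, a difference that was not tested. Of 3 genes of alveolar differentiation (SFTPC, SFTPB and NKX2-1), 0 were detected on all 4 arrays.

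MMP1 and MMP10 rose in embelin-treated cells and no other probe among the 11 passed the adjusted test. MMP1 is the interstitial collagenase, which cuts fibrillar collagens, and MMP10 is stromelysin 2, which cuts a broad range of matrix proteins and can activate other MMPs. MMP9, TIMP1 and the transcript probe of TIMP2 were detected in all samples and did not pass, and the other 6 probes were too dim to be tested. Thus 2 member probes were called higher and 0 lower, and 0.83% of all probes tested were called higher and 0.249% lower. With the paper's threshold of a 2-fold change with unadjusted p under 0.05, again 2 were higher and 0 lower, against 4.58% and 3.78% of all probes tested. MMP1 and MMP10 entered the test through the embelin arrays alone, since neither was detected on both controls, so a count over the tested members is a description only. With a filter asking for detection on all 4 arrays neither was tested, and 0 member probes were called. The median log2 fold change over all probes tested was -0.04.

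Each probe has 60 bases, and the first 30 of the probes that the results turn on are printed here, 5′ to 3′ as the array design gives them. MMP1, MMP10 and MMP3 are shown because they are neighbouring genes with related products, and both TIMP2 probes because 1 was detected on all 4 arrays and the other on 1. The design maps none of the 11 probes to the genome.
MMP1 (NM_002421): acatgtgcagtcactggtgtcaccctggat
MMP10 (NM_002425): atgtattatgagccaaaatggttaattttt
MMP3 (NM_002422): tgactcgagtcacactcaagggaacttgag
MMP9 (NM_004994): tggaggtgggctgggccctctcttctcacc
TIMP2 (NM_003255): aaagcctccaagggtttcgactggtccagc
TIMP2 (AK057217): gcttgaacaaatggaacacccagatatgag
Over their full length, the longest run of bases that any of the 11 probes shared with another was 9 bases, so the probes are different sequences even where the enzymes are alike.

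Among the collagenases, MMP1 had normalized log2 signals of 4.73 and 3.76 in controls 1 and 2 and of 10.45 and 9.84 in embelin 1 and 2. Both embelin samples lay far above both controls, and groups did not overlap in 49.7% of all probes tested, counting both directions. Before scaling these were intensities of 28.4 and 12.1 in the controls and 1339 and 1002 with embelin. The probe was detected on both embelin arrays and on 1 of 2 control arrays, and the value of control 2 was a surrogate that the scanner software sets for a spot not above background. The mean was 4.25 ± 0.69 (SD, n = 2) in controls and 10.14 ± 0.43 (SD, n = 2) with embelin. The log2 fold change was 5.90 (SE 0.43, 95% interval 4.74 to 7.05) with a limma adjusted p of 0.0285. The means differed 59.6-fold, a size that includes the surrogate value of control 2, and the pairs of arrays with like background differed 34.4-fold and 103-fold. Against the measured control alone, without control 2, the log2 fold change was 5.41.

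MMP13, collagenase 3, was not detected on any array. Its log2 signals were 1.61 and 3.60 in the controls and 3.73 and 1.68 with embelin, and all 4 were surrogate values. They followed the background of the arrays and not the treatment, so no fold is given.

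Of the stromelysins, MMP10 had log2 signals of 3.26 and 3.61 in the controls, where it was not detected, and of 8.25 and 8.02 with embelin, where it was detected on both arrays. The groups did not overlap, as was so in 49.7% of all probes tested, counting both directions. The scanner intensities were 10.3 and 10.9 in the controls and 292 and 285 with embelin. The value of control 2 was a surrogate, so the spread of the controls and the test rest in part on it. Means were 3.44 ± 0.24 and 8.14 ± 0.16 (SD, n = 2 each), and the log2 fold change was 4.70 (SE 0.22, limma adjusted p = 0.0255), measured against control signals at background level. Because both controls were under the background limit, the size of the rise has only a bound, and MMP10 was at least 9.82-fold higher with embelin. This bound sets each control at the lowest signal of any probe well above background on that array, 3.83 on control 1 and 5.85 on control 2 in log2, and averages the pair. Against control 1 by itself it was at least 19.8-fold and against control 2 by itself at least 4.88-fold. Some undetected probes lay above this lowest signal, as MMP14 did on control 1, so the bound is approximate.

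MMP3, stromelysin 1, is closely related to MMP10 but was not detected on any array. Its log2 signals were 1.59 and 3.62 in the controls and 3.73 and 2.76 with embelin, of which all but the last were surrogates.

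The rises of MMP1 and MMP10 were present between arrays of like background. Between the arrays of low background (embelin 2 minus control 1) the log2 difference was 5.11 for MMP1 and 4.76 for MMP10. Between those of high background (embelin 1 minus control 2) it was 6.69 and 4.64, where the control 2 values of both probes were surrogates. The adjusted calls, however, needed all 4 arrays. Without control 1 the log2 fold changes of MMP1 and MMP10 were 6.38 and 4.53, and the limma adjusted p of both was 0.0623. Without control 2 they were 5.41 and 4.87 (limma adjusted p = 0.124 for both), without embelin 1 they were 5.59 and 4.59 (limma adjusted p = 0.198 for both) and without embelin 2 they were 6.20 and 4.81 (limma adjusted p = 0.0993 for both). In each of these fits 0 of all probes tested passed the adjustment. With another background correction (normexp, which leaves a higher floor under dim spots) the log2 fold changes were 3.67 for MMP1 and 2.43 for MMP10, and both passed.

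**Figure D1:**
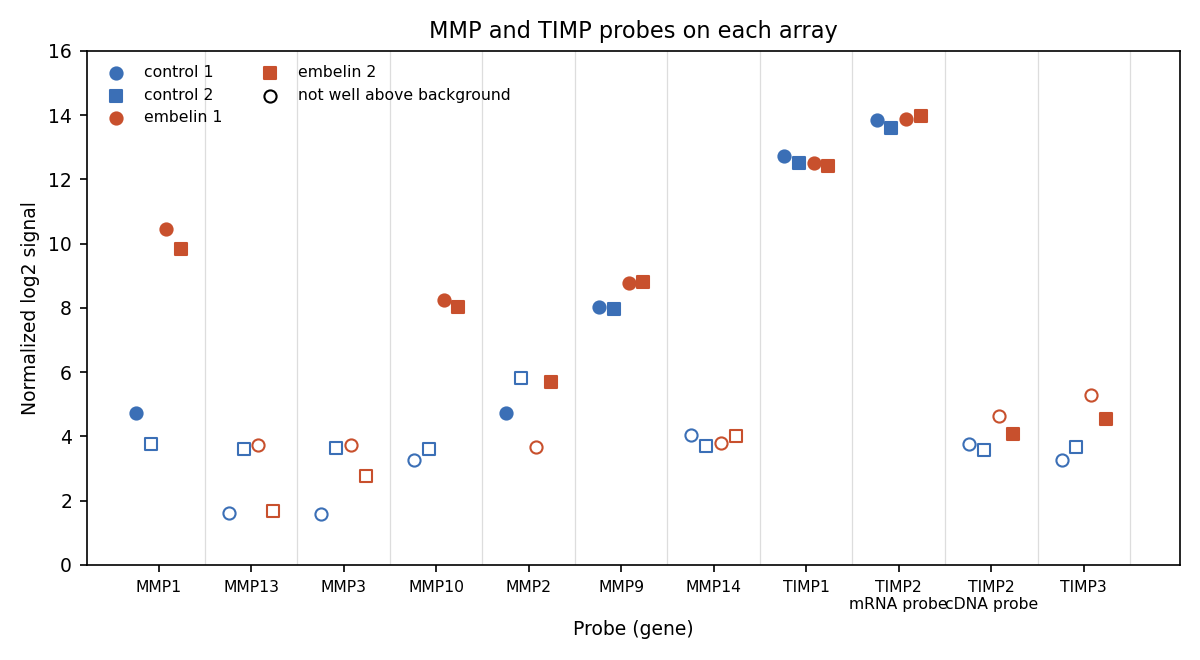
Normalized log2 signal (vertical axis) of the 11 MMP and TIMP probes (horizontal axis) on each of the 4 arrays, with 1 point an array, blue for control and red for embelin, filled where the probe was well above background and open where it was not. MMP1 and MMP10 are high on both embelin arrays, while MMP3, MMP13 and MMP14 have open points only.

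Of the gelatinases, which cut denatured collagen and basement membrane collagen, MMP9 was detected on all 4 arrays. Its log2 signals were 8.02 and 7.96 in the controls and 8.78 and 8.80 with embelin. Both embelin values lay above both control values, as groups that did not overlap did in 49.7% of all probes tested, counting both directions. The means were 7.99 ± 0.04 and 8.79 ± 0.02 (SD, n = 2 each), and the difference of 0.80 in log2 (SE 0.17, 95% interval 0.34 to 1.27), or 1.75-fold, did not pass adjustment (limma adjusted p = 0.129). It ranked 2355 of 26145 by size of rise. The pairs of arrays with like background gave 0.79 and 0.82.

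MMP2, the other gelatinase, was detected on control 1 and embelin 2 only, the arrays of low background, and was not tested. Its log2 signals were 4.72 and 5.83 in the controls and 3.68 and 5.69 with embelin. On the low-background arrays embelin 2 exceeded control 1 by 0.97 in log2, and on the other pair, where neither value was well above background, embelin 1 was below control 2, with a log2 difference of -2.15. The data thus give no direction for MMP2.

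MMP14, the membrane-type MMP that is known to activate proMMP2 at the cell surface, was not detected on any array. It gave log2 signals of 4.05 and 3.70 in the controls and 3.80 and 4.02 with embelin.

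Among the inhibitors, TIMP1 was bright in every sample, with log2 signals of 12.73 and 12.52 in the controls and 12.51 and 12.40 with embelin. The log2 fold change was -0.17 (SE 0.19, 95% interval -0.68 to 0.35, limma adjusted p = 0.716). TIMP2, which inhibits MMPs and also takes part in proMMP2 activation by MMP14, gave 13.85 and 13.59 in the controls and 13.89 and 13.98 with embelin by its transcript probe. The log2 fold change was 0.21 (SE 0.20, 95% interval -0.32 to 0.74, limma adjusted p = 0.644). For neither inhibitor was a difference beyond the spread detectable, and both intervals leave out a 2-fold change in either direction.

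The second TIMP2 probe, designed on a cDNA clone, was detected on embelin 2 only. This probe gave log2 signals of 3.76 and 3.57 in the controls and 4.62 and 4.08 with embelin, and the value of control 2 was a surrogate. The groups did not overlap, as was so in 49.7% of all probes tested, counting both directions, a set that this probe was not in. The probes of this gene therefore disagree on whether it is detected at all, and since levels of different probes cannot be compared, only the transcript probe was used for the change.

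TIMP3, an inhibitor that binds to the extracellular matrix, was also detected on embelin 2 only. The log2 signals were 3.26 and 3.67 in the controls and 5.30 and 4.54 with embelin, and the value of control 2 was a surrogate. Both embelin values were above both control values. Groups did not overlap in 49.7% of all probes tested, counting both directions, but TIMP3 was not among the probes tested, so this share does not cover it. The pairs of like background differed by 1.28 and 1.63 in log2. Since embelin 1 and both controls were not well above background, no fold is given, and the probe was not tested. Over the 6 untested probes, 12 of 24 values were surrogates and 4 of 24 were well above background.

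**Figure D2:**
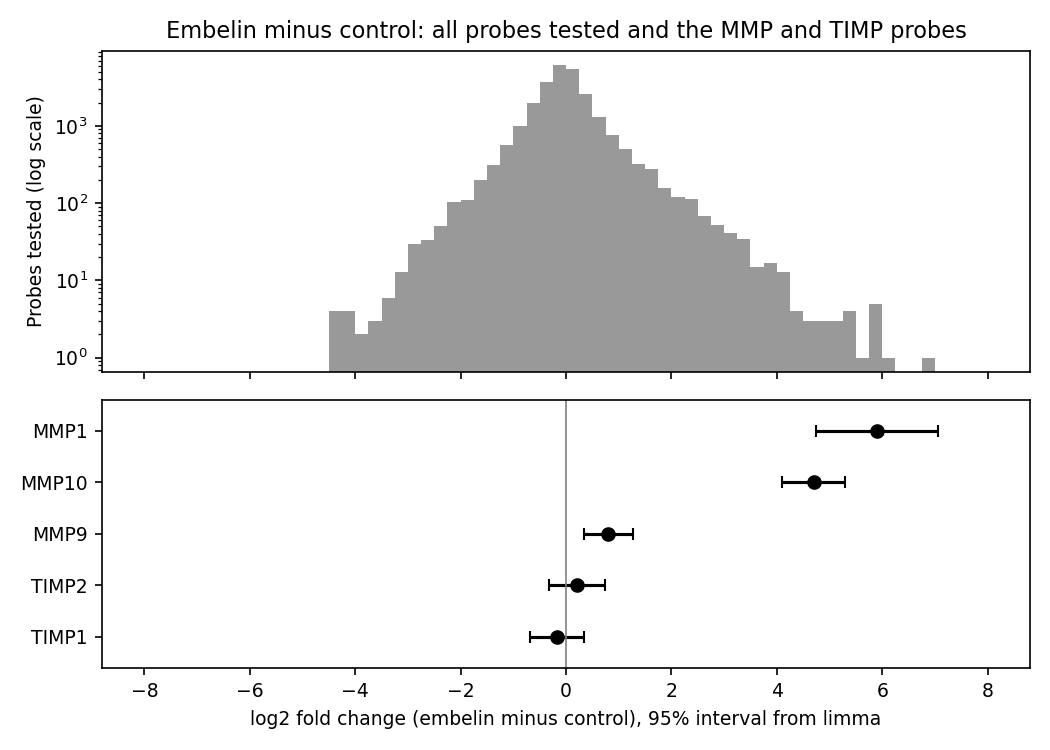
Upper panel, the number of probes (vertical axis, log scale) at each log2 fold change of embelin against control over all 26145 probes tested. Lower panel, on the same horizontal axis, the 5 tested MMP and TIMP probes with 95% intervals from limma; MMP1 at 5.90 and MMP10 at 4.70 lie in the far upper tail, and the intervals of TIMP1 and TIMP2 include 0.

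MMP1, MMP3, MMP10 and MMP13 belong to a cluster of 9 MMP genes on the long arm of chromosome 11, in the order MMP7, MMP20, MMP27, MMP8, MMP10, MMP1, MMP3, MMP12 and MMP13 in the RefSeq annotation. Within this cluster 3 genes were tested and 2, the adjacent MMP10 and MMP1, were called higher, while 0.83% of all probes tested were called higher. As MMP10 and MMP1 entered the test through the embelin arrays alone, this count is a description only. MMP7 (matrilysin, an epithelial MMP) was bright throughout, at 13.92 and 13.94 in the controls and 13.71 and 13.91 with embelin (log2 fold change -0.12, limma adjusted p = 0.802). MMP8, the neutrophil collagenase, was detected on embelin 1 only, at a log2 signal of 6.27, and had 1.68 on embelin 2. The other 5 genes (MMP20, MMP27, MMP3, MMP12 and MMP13) were not detected on any array. So MMP3 and MMP8, the neighbours on either side of the adjacent pair, were not detected on both embelin arrays.

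**Figure D3:**
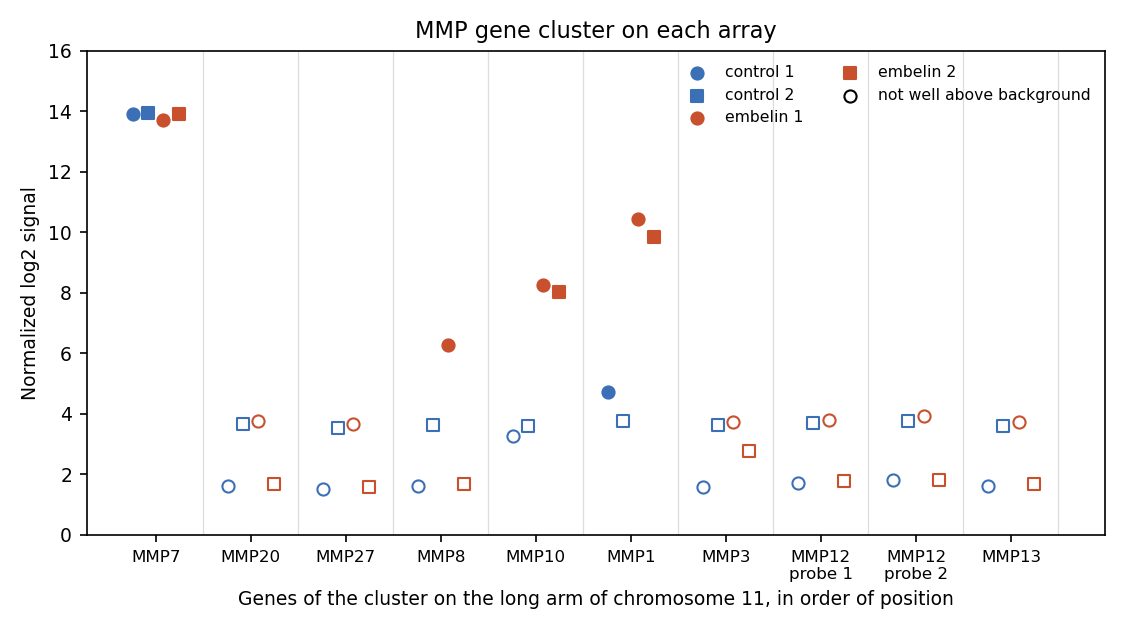
Normalized log2 signal (vertical axis) of the 9 MMP genes of the cluster on chromosome 11 in their order along the chromosome (horizontal axis, not to scale), 1 point an array, filled where well above background. MMP7 is near 14 on every array, MMP10 and MMP1 are filled on both embelin arrays, and MMP8 on embelin 1 only.

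Outside the 10 genes, 16 other MMP genes had 22 probes, of which 8 from 6 genes were tested. None was called (0 higher and 0 lower, also at the 2-fold threshold). Of these probes 1 was above 0 and 7 were below, and their median was -0.21 in log2, beside -0.04 over all probes tested. The dimmer MMP15 probe (log2 fold change -0.37) and the MMP25 probe (-0.18) entered the test through the control arrays alone. The count of directions and the median of this list are therefore descriptions only. Of 4 other inhibitors (TIMP4, RECK, TFPI2 and A2M) 3 genes were tested and 0 called. RECK, a membrane-anchored inhibitor of MMPs, was measured by a pair of probes that disagreed. The first had 10.35 and 10.48 in the controls and 8.89 and 9.15 with embelin (log2 fold change -1.40, limma adjusted p = 0.0679, past the 2-fold threshold with unadjusted p), and the other had a log2 fold change of 0.30 (limma adjusted p = 0.463). Of 28 ADAM and ADAMTS genes, related metalloproteinases, 13 were tested and 0 called, with a median log2 fold change of 0.18. These counts of 0 stand beside shares of 0.83% called higher and 0.249% called lower over all probes tested.

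Of 9 genes for activators and inducers at the cell surface, 8 were tested, by 10 probes, and 1 gene rose, PLAUR. Over all probes tested, 0.83% were called higher and 0.249% lower. PLAUR is the receptor of urokinase, which gathers plasmin formation at the cell surface, and plasmin can activate proMMPs. PLAUR had log2 signals of 11.88 and 12.35 in the controls and 14.95 and 15.33 with embelin, a log2 fold change of 3.02 (SE 0.27, limma adjusted p = 0.0367). Urokinase itself, PLAU, had 14.85 and 15.04 in the controls and 15.68 and 15.95 with embelin, and its log2 fold change of 0.87 did not pass (limma adjusted p = 0.145). The other genes of this list did not pass either, among them FURIN, PLAT, BSG and CD44.

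Of 19 genes for transcription factors with known sites in MMP promoters all were tested and 3 rose after adjustment, ATF3, FOSL1 and FOS, all of which can form AP-1 dimers or bind related sites. The brighter ATF3 probe went from 8.55 and 8.24 in the controls to 14.09 and 14.11 with embelin (log2 fold change 5.71, limma adjusted p = 0.0255). The brighter FOSL1 probe had a log2 fold change of 2.37 (limma adjusted p = 0.0306). The dimmer one, at 4.37 and 4.54 in the controls and 7.20 and 7.70 with embelin, passed as well (limma adjusted p = 0.0327). FOS had a log2 fold change of 2.43 (limma adjusted p = 0.0361). At the 2-fold threshold with unadjusted p 10 genes of this list were higher and 1 was lower, and its median log2 fold change over 36 tested probes was 0.86. Over all probes tested the shares were 0.83% called higher after adjustment, and 4.58% higher and 3.78% lower at the 2-fold threshold. These are shares of probes, while a gene of the list was counted if any of its probes passed. JUNB and RUNX1 were counted as higher though another tested probe of each did not pass, so the counts and shares are unlike measures. The probe of FOSB and the dimmer ones of ATF3 and FOSL1 entered the test through the embelin arrays alone. The tested probe of ETV1, the gene counted as lower (log2 fold change -1.31), entered it through the control arrays alone. The median and the counts of this list are therefore descriptions only. These levels are given beside those of MMP1 and MMP10, and a link between them was not tested.

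Upstream sequence was at hand in RefSeq (build GRCh38.p14) for 4 of the 10 genes, MMP10, MMP14, TIMP1 and TIMP3. In the 250 bases before each start the letters TGANTCA (AP-1), AGGANGT (PEA3) and TATAAA were searched on both strands. The last is the core of the promoter element that binds TBP. MMP10 held TGAATCA at 67 to 61 bases and TATAAA at 31 to 26 bases before the start, and the other 3 genes held none of the 3. Of 35116 promoters of the same length, 6.57% held the AP-1 letters, 15.4% those of PEA3 and 10.7% the TBP element. The 120 bases before the start are printed for MMP10, which rose, and for TIMP1, which was bright and did not pass, with the matches in capitals.
MMP10, chr11:102780629-102780748, minus strand: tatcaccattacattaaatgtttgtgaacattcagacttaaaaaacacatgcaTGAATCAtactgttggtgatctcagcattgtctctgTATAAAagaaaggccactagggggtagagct
TIMP1, chrX:47582316-47582435, plus strand: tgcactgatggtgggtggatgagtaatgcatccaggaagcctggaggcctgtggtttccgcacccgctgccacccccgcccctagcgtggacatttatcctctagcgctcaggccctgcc
A match describes these letters only, and other forms of these sites were not searched. The TIMP1 stretch holds tgagtaa, which differs from the AP-1 letters only in its next-to-last base. A lack of matches therefore does not show that a gene has no such site.

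Several MMPs and TIMPs are also expressed by fibroblasts, leukocytes and endothelial cells, so markers of these cells were read on the same arrays. Of 6 fibroblast genes, DCN and PDGFRB were not detected on any array, LUM was detected on control 2 only, COL1A2 and COL3A1 were detected on embelin 1 only, and COL1A1 was higher with embelin at the 2-fold threshold with unadjusted p by all 3 of its probes. Their log2 fold changes were 1.30, 1.76 and 1.83 (limma adjusted p = 0.066, 0.0514 and 0.0479), and they lay above both controls on embelin 1 and on embelin 2. The probes with 1.76 and 1.83 were detected on only 1 control array each. They entered the test through the embelin arrays alone, so their passing is a description only. The summed normalized intensity of this list was 217 and 420 in the controls and 1330 and 554 with embelin. On embelin 1 it included 1 probe each of COL3A1 and COL1A2, at log2 8.857 and 8.298, which had 2.865 and 1.702 on embelin 2. The other probes of these 2 genes were not detected on any array. On control 2 the sum included LUM at log2 7.436. The marker sums also include undetected values, which follow the background of each array. Of 4 leukocyte genes CD14 and CD68 were detected on all 4 arrays, with log2 fold changes of -0.60 and 0.39 that did not pass (limma adjusted p = 0.268 and 0.466), and PTPRC and CSF1R were each detected on 1 embelin array and on no control. The sum of this list was 1673 and 2160 in the controls and 2134 and 2104 with embelin. None of 3 endothelial genes was tested, and their sum was 105 and 76.5 in the controls and 86.6 and 95.6 with embelin. The part of these markers in the rises of MMP1 and MMP10 was not tested.

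**Figure D4:**
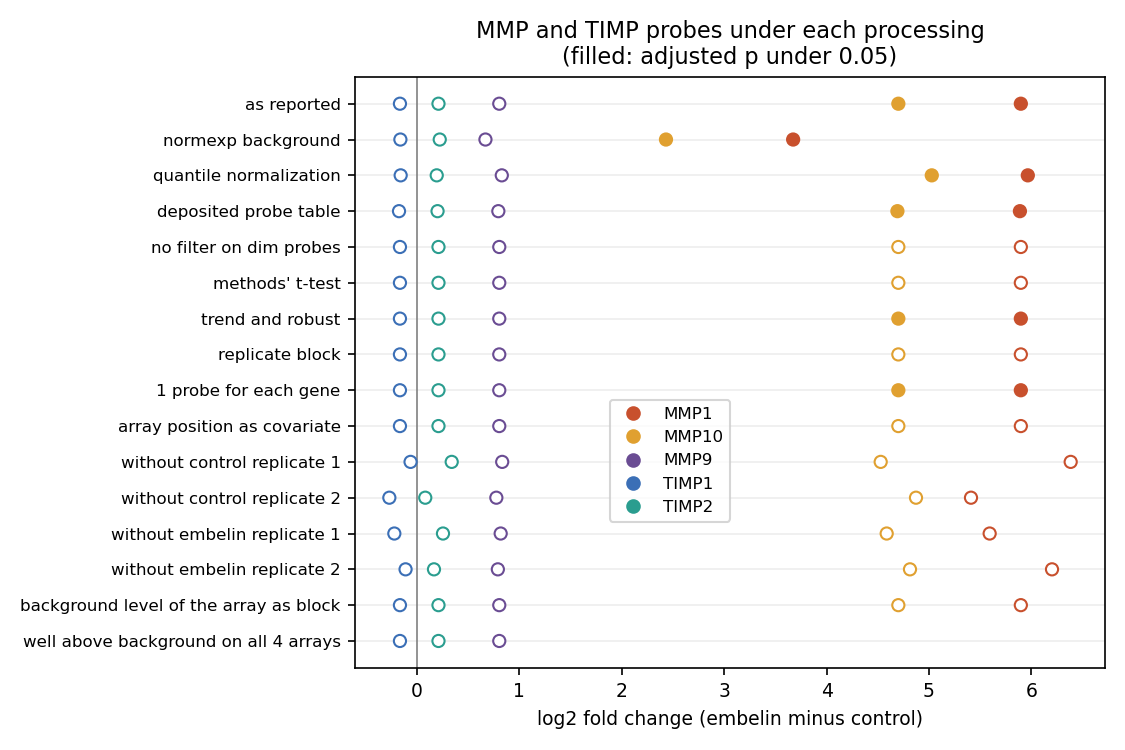
Log2 fold change of embelin against control (horizontal axis) of the 5 tested MMP and TIMP probes as reported and under 15 other ways of processing (vertical axis), filled where the adjusted p was under 0.05. MMP1 stays between 3.67 and 6.38 and MMP10 between 2.43 and 5.03 where they could be tested, with filled points in 5 of 14 alternatives, while MMP9, TIMP1 and TIMP2 have open points throughout.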

How the data were processed

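The authors deposited scanner intensities of 4 single-colour arrays written by Agilent Feature Extraction 10.7.3.1. Background had been subtracted and trends removed within each array, dim spots carried surrogate values, and arrays were not normalized to each other. The design build is hg18. Each array was scaled here to a common 75th percentile, with a floor of 1 before log2. Outlier spots (47 to 743 an array) were left out. Of 50238 probes, 26146 had spots well above background on each array of a group, and 26145 of these could be fitted with limma 3.58.1 in R 4.3.3 (lmFit and eBayes, each probe on its own, Benjamini-Hochberg adjustment). The fit was tested on simulated data. Names for 28595 probes came from their accession in RefSeq, 2341 took the name of another probe, and 19302 kept the file's name. With 2 arrays a group, precision is low. Control arrays lay at slide positions 4 and 1 and embelin arrays at 2 and 3.

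The members, gene lists, markers and motifs were chosen with earlier results of these data known. Every member probe is named, and of each list the genes called after adjustment (at most the 3 with the largest change) and the genes of the cluster on chromosome 11. RECK, PLAU and other list members named without a call were chosen after their values were seen. Alternatives were normexp (offset 50), quantile normalization, the deposited table of probe intensities, no filter, a filter asking for all 4 arrays, the t-test of the methods, limma with a trended and robust prior, a block for replicate number, 1 probe for each gene, slide position as a covariate, and each array left out. In the last the single array of a group takes its spread from the other group. A block for background level was added after the values were seen.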

Additional observations from a re-analysis of the deposited data

How the results depend on the processing

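The 5 tested MMP and TIMP probes kept their direction under every alternative that gave a value, and no result reversed. With the filters, the t-test, trend and robust, 1 probe for each gene, the blocks and slide position, the fold change itself could not differ. These change only the test or the set of probes, or add a term balanced between the groups. Direction could differ only with normexp, quantile normalization, the deposited table and each array left out. Of 2 member probes called higher, 2 were called with normexp, quantile normalization, the deposited table, trend and robust, and 1 probe for each gene. By contrast 0 were called with no filter, with the filter asking for all 4 arrays (which removes MMP1 and MMP10), with the methods' t-test, with slide position and with the block for background, and 0 with any 1 array left out; the cause was not tested. The replicate block also gave 0 member probes and 0 of all probes higher or lower (limma adjusted p = 0.0694 for MMP1 and MMP10). The replicate numbers are not known to pair samples. Across probes, the difference between replicates 1 and 2 in the controls had a correlation of 0.21 with that in the embelin samples.

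Over all probes, 217 were called higher and 65 lower. The counts were 541 and 278 with normexp, 476 and 292 with the filter asking for all 4 arrays, and 743 and 553 with trend and robust. They were 132 and 26 with the deposited table, and 31 were lower with quantile normalization and 99 with 1 probe for each gene. No filter, the methods' t-test, slide position, the block for background and each array left out gave 0 and 0, and limma as reported had 4680 probes with unadjusted p under 0.05. At the 2-fold threshold with unadjusted p, 1198 were higher and 987 lower as reported, 785 and 467 with normexp, 784 and 608 with the methods' t-test, and 753 higher with 1 probe for each gene. With each array left out, 1056 to 1690 were higher and 761 to 1538 lower. The adjusted p of MMP1 ranged from 0.00137 to 0.505 and that of MMP10 from 0.00745 to 0.505 with limma and the t-test. Signal over background limits MMP2, MMP3, MMP13, MMP14, TIMP3 and the second TIMP2 probe, for which no change could be tested.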
